A study of Homo sapiens with 12 samples.

Results

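MDA-MB-231 cells that had received tumour necrosis factor (TNF) together with the plant flavone apigenin were compared with cells that had received TNF alone, to see which transcripts apigenin changed in the presence of TNF. The comparison uses 6 of the 12 arrays of the study: the 3 arrays of the combined treatment and the 3 arrays of TNF. It was made over every probe set with exactly 1 gene symbol, which held for 23871 of 53617 probe sets. After a filter on dim probe sets and with 1 probe set per gene, 20572 genes were tested.

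The cells are an established human line of triple-negative breast cancer, grown from a pleural effusion, and all groups come from this single line. Treated cells received TNF at 40 ng/ml, apigenin at 40 µM, or both, in Hanks' balanced salt solution for 24 h, and control cells were untreated. Whether control cells received the same solution, or any solvent of apigenin, is not stated in the labels. Each of the 4 groups has 3 whole-transcript arrays, hybridised with total RNA. The labels call the 3 arrays of a group triplicates without saying whether each had its own culture, so every p-value weighs a difference only against the scatter of these arrays, which may be technical.

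TNF binds to receptors at the cell surface and switches on the IκB kinase complex, which frees NF-κB to enter the nucleus. NF-κB then raises the transcription of cytokines, chemokines, adhesion molecules and proteases, and also of inhibitors that shut the pathway down again. Apigenin, found in parsley, celery and chamomile, is described as an inhibitor of several protein kinases, casein kinase 2 among them, and as a ligand of the aryl hydrocarbon receptor.

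All values are log2 expression values, and differences are log2 differences between group means, so that a difference of 1 is a doubling. A gene was called higher or lower when its Benjamini-Hochberg adjusted p in the limma fit of all 12 arrays was below 0.05. Array medians lay between 2.091 and 2.159 and the highest value was 12.495, so a gene near 2 was no brighter than the typical probe set. Arrays of the same group correlated at 0.983 to 0.991, and a TNF array with a combined array at 0.972 to 0.981. Of 17 measured markers of the line, vimentin (VIM) lay at 7.93 to 8.3 on the 12 arrays and the receptor kinase AXL at 9.88 to 10.19, but the list was not steady. Its median level was 8.22 to 8.28 on the TNF arrays and 7.66 to 7.67 on the combined arrays, with 5 members lower (EGFR, PLAU, PLAUR, CD44 and MET) and 1 higher (FOSL1). PLAUR kept its call only without TNF array 2 or 3, and the list had no higher member without TNF array 2 or any of the combined arrays. The receptors ESR1 and PGR lay at 1.84 to 2.44 and 1.37 to 1.84, and E-cadherin (CDH1) at 1.81 to 2.1, while the epithelial markers EPCAM (4.58 to 5.24) and GATA3 (3.65 to 4.67) were above the array medians. No leukocyte marker of 14 measured and none of 9 fibroblast and endothelial markers was called between the TNF and combined arrays by limma, with 2 of the 14 and none of the 9 at an unadjusted p below 0.05. The median level of the leukocyte list was 1.99 to 2.1 on the TNF arrays and 1.99 to 2.11 on the combined arrays.

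Genes that fell when apigenin was added to TNF included the cytokine IL1A, the complement component C3, the collagenase MMP1, the receptor EGFR and the mitotic kinase PLK1. Genes that rose included the zinc exporter SLC30A1, the stress gene GADD45B and the immediate early gene EGR1. Of the 20572 genes, 2085 were called (10.1%), with 867 higher (4.21%) and 1218 lower (5.92%). A change of at least 2-fold was reached by 141 of the higher and 229 of the lower genes. Differences ran from -3.73 to 3.26 around a median of -0.012, and 4476 genes had an unadjusted p below 0.05. In 5390 genes (26.2%) the 3 TNF arrays and the 3 combined arrays did not overlap. The number of calls rested in part on single arrays: it was 1278 without TNF array 1 and 1191 without combined array 1. So did the excess of lower calls, with 780 higher and 749 lower without TNF array 3, and 990 higher and 1761 lower after quantile normalisation. Calls were frequent among bright genes, at 10.1% higher and 12.9% lower in the brightest 25% of genes (mean of at least 4.86), against 0.175% and 0.194% in the dimmest 25%. Against control, TNF alone changed 205 genes (0.997%), 160 higher (0.778%) and 45 lower (0.219%), or 181 higher and 123 lower after quantile normalisation, and the total ran from 98 without control array 1 to 314 without TNF array 2. The combined treatment changed 2576 genes against control (12.5%), 1471 higher (7.15%) and 1105 lower (5.37%), or 1300 and 2049 after quantile normalisation. These 2 comparisons share the control arrays with each other and the TNF or combined arrays with the main one. The counts given for gene lists below are to be read beside the 4.21% higher and 5.92% lower of all genes. In a short list, a single call in a direction is close to these shares. Unless stated otherwise, each gene described below as having risen or fallen kept its call whichever of the 6 arrays was left out.

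The 14 coding genes that fell most were IL1A, IL24, CYP1B1, CEMIP, IKBKE, CAVIN2, PLK1, C3, SHISA2, KIF20A, GPRC5B, RAB27B, CTSS and CXCL11. The 14 that rose most were SLC30A1, RASD1, KICS2, ARC, ARRDC4, SLFN5, GADD45B, EGR1, H2BC5, RPLP1, ZNF557, RRAD, ZNF468 and ZNF75A. GPRC5B, an orphan receptor of the retinoic acid induced family, read 5.71, 5.44 and 6.01 on the TNF arrays and 3.56, 3.97 and 3.91 on the combined arrays. It fell by 1.91 (SE 0.19, adjusted p = 5.9e-05), and its combined values lay at the control values of 3.65, 3.82 and 4.09. SLFN5, an interferon-inducible Schlafen protein, went the other way, from 5.63, 5.51 and 5.73 with TNF to 7.81, 7.83 and 7.81 with both. Its rise was 2.19 (SE 0.15, adjusted p = 2.3e-06), and all combined arrays were also above the control arrays at 4.60, 4.96 and 5.28.

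**Figure D1:**
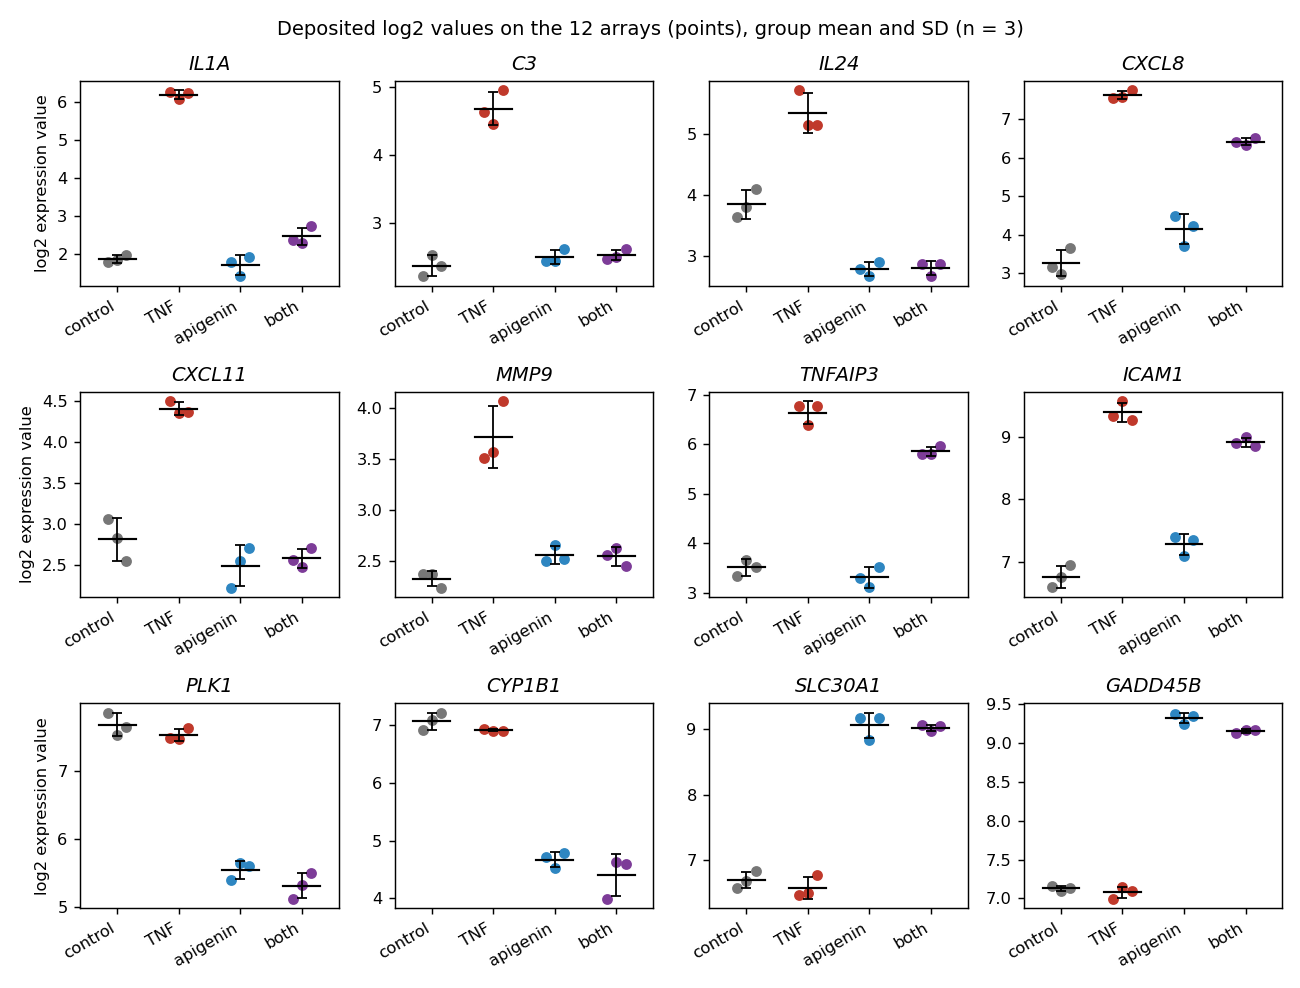
Log2 values of 12 genes on all 12 arrays; points are single arrays, the horizontal bar is the group mean and the whisker its SD (n = 3). IL1A, C3 and MMP9 stood high on the TNF arrays alone, CXCL8, TNFAIP3 and ICAM1 stayed well above control with both agents, and PLK1, CYP1B1, SLC30A1 and GADD45B shifted wherever apigenin was present.

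The same contrast without TNF, apigenin minus control, uses the other 6 arrays of the study and shares none with the comparison above. There 2342 genes were called (11.4%), 936 higher (4.55%) and 1406 lower (6.83%). Called in both were 1389 genes, which is 66.6% of the genes called with TNF and 59.3% of those called without, and 1387 of them had the same direction, 565 higher and 822 lower. The 2 called in opposite directions were CXCL8 and ICAM1. Of all genes called with TNF, 2035 (97.6%) had the same sign without TNF, where 68.5% of all genes tested did. Across the 20572 genes the 2 differences correlated at r = 0.763 (rho = 0.617), which describes genes and not independent replicates.

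Whether apigenin's effect depended on TNF was tested by the interaction, the difference with TNF minus the difference without it. It was called in 11 genes (0.0535%), 9 with a more negative difference in the presence of TNF (0.0437%) and 2 with a more positive one (0.00972%), and 870 genes (4.23%) had an unadjusted p below 0.05. The standard error of this difference of differences had a median of 0.21, against 0.15 for the comparison with TNF itself. With 1 array left out at a time, 2 to 6 genes were called and 2 to 5 of the 11 kept their call. IL1A and C3 were called under all 19 alternatives tried, and the other 9 under 4 to 9 of them. Control arrays read 1.80 to 1.98 for IL1A, 2.22 to 2.54 for C3 and 2.25 to 2.38 for MMP9. These values are near the array medians of 2.091 to 2.159, while VIPR1 and LOC100287834 were bright there. For genes so dim without TNF a fall could hardly be measured. Their interaction cannot tell a different action of apigenin from a lack of signal to lower.

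IL1A encodes interleukin 1 alpha, a cytokine that starts inflammatory signalling in neighbouring cells. Its values were 6.27, 6.07 and 6.25 on the TNF arrays and 2.37, 2.30 and 2.73 on the combined arrays, against 1.80, 1.84 and 1.98 in control cells and 1.79, 1.41 and 1.92 with apigenin alone. The TNF arrays stood apart from the other 9. With apigenin added it fell by 3.73 (SE 0.15, adjusted p = 2.8e-08), which is 13.3-fold. Without TNF, where all its values lay below the array medians, the apigenin difference was -0.16 and not called. The interaction was -3.57 (SE 0.21, adjusted p = 4.7e-06). The combined arrays were still 0.60 above control (adjusted p = 0.019).

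C3, the central component of complement, read 4.64, 4.46 and 4.95 with TNF and 2.47, 2.5 and 2.62 with both agents. The combined arrays overlapped those of control (2.22, 2.54 and 2.36) and of apigenin alone (2.45, 2.44 and 2.62). C3 fell by 2.16 (SE 0.14, adjusted p = 1.5e-06), a 4.46-fold change, and its interaction was -2.29 (SE 0.20, adjusted p = 2e-04).

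CXCL8, interleukin 8, attracts neutrophils. It read 7.55, 7.58 and 7.75 with TNF and 6.41, 6.32 and 6.51 with both, against 3.17, 2.97 and 3.65 in control cells and 4.48, 3.72 and 4.23 with apigenin alone. The 4 groups did not overlap. In the presence of TNF it fell by 1.21 (SE 0.19, adjusted p = 0.0015), 2.32-fold, and in its absence it rose by 0.88 (adjusted p = 0.0095). The interaction was -2.09 (SE 0.28, adjusted p = 0.022), with adjusted p from 0.0035 to 0.144 over the alternatives and a call in 3 of 12 fits that left out an array.

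A further 5 of these 11 genes had no called difference without TNF and fell with it, namely CXCL11, MMP9, CLDN1, CNTNAP1 and the non-coding locus LOC100287834. MMP9, a gelatinase that cuts basement membrane collagen, read 3.51, 3.57 and 4.06 with TNF and 2.56, 2.63 and 2.45 with both, the latter overlapping apigenin alone at 2.5, 2.66 and 2.52. It fell by 1.16 (SE 0.14, adjusted p = 0.00022), and the interaction was -1.39 (adjusted p = 0.034). CLDN1, claudin 1 of tight junctions, fell by 1.27 from 4.78, 5.05 and 5.17 to 3.69, 3.69 and 3.81, with an interaction of -1.12 (adjusted p = 0.047). CNTNAP1, a contactin-associated membrane protein, fell by 1.30 with an interaction of -1.46 (adjusted p = 0.049). IL24 was called lower in both settings, by -2.53 with TNF and -1.06 without, and the interaction was -1.47 (adjusted p = 0.049). Each of these calls was lost in most fits that left out an array, where CXCL11 and MMP9 kept it in 2 of 12 and the other 4 in 1 of 12.

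SAMD9L and VIPR1 were the 2 genes with a positive interaction. VIPR1, the receptor of vasoactive intestinal peptide, read 6.23, 6.20 and 6.42 in control cells, 4.71, 4.80 and 4.84 with TNF, 4.95, 4.56 and 4.92 with apigenin and 4.41, 4.49 and 4.56 with both. Either agent alone took it down, by -1.50 for TNF and -1.47 for apigenin, and the added difference of apigenin on top of TNF was -0.30 (adjusted p = 0.18). SAMD9L, an interferon-inducible antiviral protein, fell by 1.89 with apigenin alone and differed by -0.52 in the presence of TNF, a call that was lost whichever of the 6 arrays was left out. For both genes the interaction (1.37 for SAMD9L, 1.18 for VIPR1) was lost in every fit that left out an array.

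**Figure D2:**
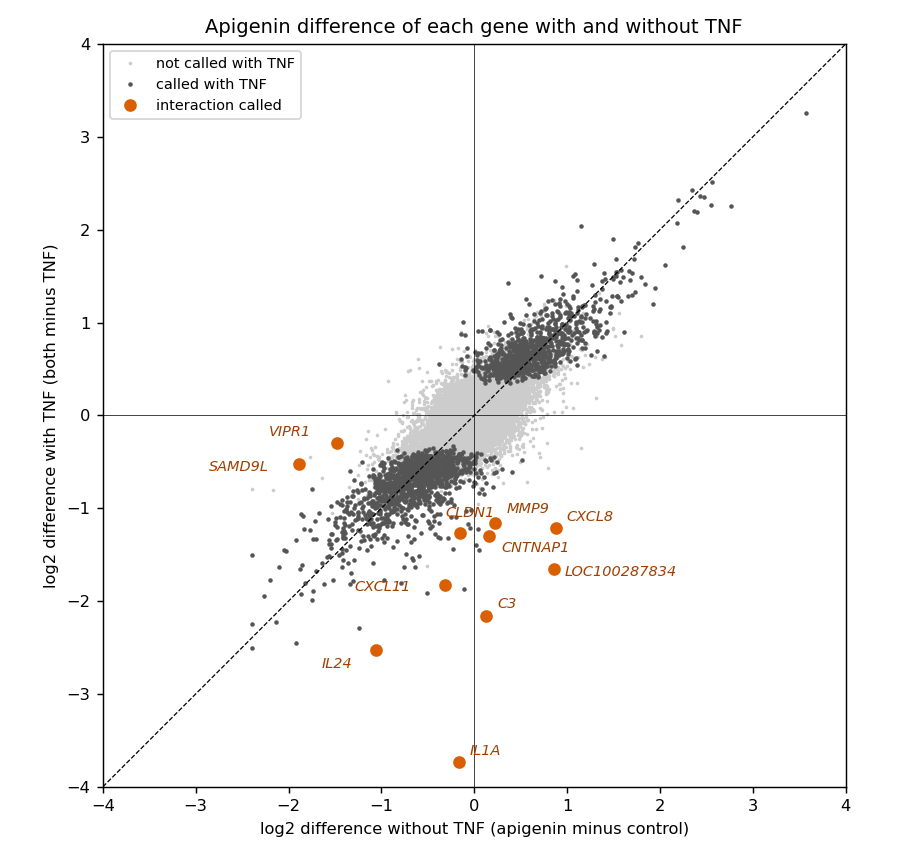
Each point is 1 of the 20572 genes; the x axis is the log2 difference apigenin minus control, the y axis the log2 difference combined treatment minus TNF, the dashed line is equality, dark points were called with TNF and orange points are the 11 genes with a called interaction. Most called genes follow the dashed line (r = 0.763 over all genes), and IL1A at -3.73 with TNF and -0.16 without lies farthest from it.

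Among the inflammatory ligands, the losses were concentrated in a few genes. Of 13 measured interleukin 1 family members 2 fell and none rose, of 16 CXC chemokines 4 fell and 1 rose, of 15 CC and CX3C chemokines 1 fell, and of 14 other cytokines 5 fell. The list medians were -0.10, -0.09, -0.10 and -0.25. Few of these genes were bright: none of the interleukin 1 family and 1 of the CXC chemokines was in the brightest 25% of genes. IL1B, the second major interleukin 1, read 4.80, 3.03 and 2.77 with TNF and 2.01, 2.1 and 2.13 with both. TNF array 1 was far above its companions, the difference was -1.45 (SE 0.37, adjusted p = 0.024), and the call was lost without any of the 3 combined arrays (differences of -1.42 to -1.47); without TNF array 1 the difference was -0.82. Without combined array 1 or 2 the interleukin 1 list had 1 gene called lower, and after quantile normalisation 4.

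IL24, a cytokine of the interleukin 10 family, read 5.71, 5.14 and 5.15 with TNF and 2.87, 2.67 and 2.87 with both. The combined arrays were at the level of apigenin alone (2.79, 2.68 and 2.91) and below all control arrays (3.64, 3.80 and 4.10). IL24 fell by 2.53 (SE 0.17, adjusted p = 1.7e-06), a 5.77-fold change. Interleukin 6 (IL6), which drives the acute phase response, read 3.97, 4.65 and 5.54 with TNF and 3.17, 3.02 and 3.65 with both. The groups did not overlap although the TNF arrays were widely spread, and IL6 fell by 1.44 (SE 0.29, adjusted p = 0.0067). IL32, a cytokine induced by TNF, differed by -1.23, and CSF1, the growth factor of macrophages, by -0.82, both called.

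The chemokines CXCL10 and CXCL11, ligands of CXCR3, a chemokine receptor on T cells, fell together. CXCL11 read 4.5, 4.36 and 4.37 with TNF and 2.56, 2.47 and 2.70 with both, and CXCL10 read 2.74, 3.19 and 3.72 with TNF and 1.61, 1.95 and 1.89 with both. Neither gene overlapped between these groups, and for both the combined arrays were in the range of untreated cells or close to it (CXCL11 at 3.06, 2.82 and 2.54, CXCL10 at 1.79, 1.26 and 1.66). CXCL11 fell by 1.83 (SE 0.15, adjusted p = 1.3e-05) and CXCL10 fell by 1.40 (SE 0.21, adjusted p = 0.00093). CCL2, which attracts monocytes, read 2.62, 2.90 and 3.19 with TNF and 1.85, 1.79 and 1.54 with both, and fell by 1.17 (SE 0.14, adjusted p = 0.00021). CXCL14, a chemokine of epithelia, was 0.63 higher with both, a call lost without TNF array 1 or 3 (0.64 and 0.61) or without combined array 1 or 2 (0.68 and 0.55).

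The promoters of CXCL10 and CXCL11 are shown because each holds a match to the κB site, the DNA element bound by NF-κB, close to the start site. Sequences are from RefSeq on GRCh38.p14, 250 bases before the start site on the strand of the gene, with the match in capitals. CXCL10 lies at chr4:76023498-76023747 on the minus strand and has matches 177 and 122 bases before the start site. CXCL11 lies at chr4:76036071-76036320 on the minus strand and has 1 match, 76 bases before the start.
CXCL10: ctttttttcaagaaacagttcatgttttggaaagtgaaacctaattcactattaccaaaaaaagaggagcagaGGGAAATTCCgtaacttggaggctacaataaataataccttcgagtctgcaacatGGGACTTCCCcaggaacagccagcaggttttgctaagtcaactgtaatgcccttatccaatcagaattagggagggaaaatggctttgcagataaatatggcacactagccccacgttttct
CXCL11: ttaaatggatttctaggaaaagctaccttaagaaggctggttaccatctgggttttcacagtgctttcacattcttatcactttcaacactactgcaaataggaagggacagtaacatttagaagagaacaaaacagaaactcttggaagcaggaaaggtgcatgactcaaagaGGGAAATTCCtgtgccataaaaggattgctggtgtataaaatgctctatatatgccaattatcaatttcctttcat

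A promoter window of 250 bases before to 50 bases after the start site was matched for 14711 of the 20572 genes, and 6.55% of these windows held the κB site on either strand. In the NF-κB and cytokine lists searched, 32.8% of 58 promoters held it, with 50.0% of the 14 whose gene fell and 27.3% of the 44 whose gene did not. The pattern searched was GGGRNWYYCC, where R is A or G, W is A or T, Y is C or T and N is any base. IL1A, CXCL8 and IL24 had no full match to it in this window. Near matches were not counted. The CXCL8 window holds TGGAATTTCC, which departs from the pattern only in its first base. Among all genes that fell, 8.95% of 994 windows held it. The core of the interferon-stimulated response element was in 2.94% of all windows and ran the other way within its list, at 55.6% of 9 interferon-stimulated genes that fell and 72.7% of 33 that did not. These matches are a description of letters and say nothing about binding.

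Of 13 ligands of the TNF superfamily 2 fell and 1 rose (median -0.09), and of 20 receptors 2 fell and 2 rose (median -0.12). Of all genes 5.92% fell and 4.21% rose, and counts this small say little about either list as a whole. TNFSF10, the death ligand TRAIL, read 8.58, 8.73 and 8.52 with TNF and 6.64, 7.0 and 6.85 with both, below every control array (7.82, 7.67 and 7.70). It fell by 1.78 (SE 0.12, adjusted p = 2.5e-06). TNFRSF10D, a decoy receptor of TRAIL without a functional death domain, moved the other way, from 7.81, 7.99 and 7.91 to 9.44, 9.29 and 9.27. It rose by 1.43 (SE 0.11, adjusted p = 8e-06). The signalling TRAIL receptor TNFRSF10A also rose, by 0.49. TNFRSF9, the costimulatory receptor 4-1BB, fell by 1.02 from a TNF level 2.93 above control, while its ligand TNFSF9 rose by 0.79.

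Of 28 measured NF-κB subunits, kinases and adaptors, 1 fell and 1 rose, or 4 and 2 after quantile normalisation, with a median of 0 to 2 decimals. The gene that fell was IKBKE, an IκB kinase relative that also activates interferon regulatory factors. It read 6.58, 6.6 and 6.53 with TNF and 4.27, 4.06 and 4.51 with both, the latter level with control (4.36, 4.09 and 4.74). IKBKE fell by 2.29 (SE 0.27, adjusted p = 0.0002), a 4.9-fold change. With apigenin alone it differed from control by -1.24, at 2.33, 3.6 and 3.54, where apigenin array 1 was far below its companions. MAP3K8, the kinase Tpl2, was 0.47 higher, a call kept without TNF array 3 (0.52) and lost without any of the other 5 arrays (0.41 to 0.49).

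Of 17 genes listed as feedback inhibitors of NF-κB, 6 fell and none rose, with a median of -0.24. TNFAIP3, the ubiquitin-editing enzyme A20, read 6.76, 6.38 and 6.77 with TNF and 5.80, 5.81 and 5.95 with both, and fell by 0.78 (SE 0.15, adjusted p = 0.0043). Both groups were far above control at 3.34, 3.67 and 3.53, so that the combined arrays were 2.34 above it. TNIP1, a partner of A20, fell by 0.66 and TNIP3 by 0.85. TNFAIP2, which the list also held although it is not an established inhibitor, fell by 1.02. IRAK3, which restrains Toll-like receptor signalling, fell by 1.32 on its brighter probe set and differed by 0.04 on a second one at a mean of 1.59. NFKBIA, the inhibitor IκB alpha, read 7.98, 8.09 and 8.54 with TNF and 8.03, 7.97 and 7.92 with both, a difference of -0.23 that was not called (adjusted p = 0.42).

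Immune surface molecules were divided. CD274, the checkpoint ligand PD-L1, read 6.0, 6.08 and 6.11 with TNF and 6.99, 7.16 and 7.22 with both, and rose by 1.06 (SE 0.13, adjusted p = 0.00028). CD44, the hyaluronan receptor, fell by 0.63. ICAM1, the integrin ligand that leukocytes use to attach, read 9.33, 9.56 and 9.27 with TNF and 8.89, 8.99 and 8.85 with both. The groups did not overlap and the difference of -0.48 was called (SE 0.13, adjusted p = 0.036). It kept that call without TNF array 3 (-0.54) and lost it without any of the other 5 arrays (-0.39 to -0.52), and the combined arrays were 2.15 above control. Of the 18 members measured, 4 fell and 1 rose, and the number lower was 2 without TNF array 1 and 1 without TNF array 2, combined array 1 or combined array 2.

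CTSS, the endosomal protease cathepsin S, which trims the invariant chain of class II molecules, read 8.22, 8.38 and 8.52 with TNF and 6.37, 6.41 and 6.74 with both. It fell by 1.87 (SE 0.22, adjusted p = 0.00018), and the combined values overlapped control at 5.85, 5.74 and 6.6. Among 22 antigen presentation genes it was 1 of 3 that fell (median -0.16), and the only one left without TNF array 1 or combined array 2. In the complement list, CFB, the factor B of the alternative pathway, fell by 0.76 beside C3. So 2 of 19 fell (median 0.01), where 5.92% of all genes did.

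Interferon-stimulated genes fell in 11 of 54 cases and rose in 3, with a median of -0.23, and 16 of the 54 were in the brightest 25% of genes. The number lower was 4 without TNF array 1, TNF array 3, combined array 1 or combined array 2, 12 without TNF array 2, and 20 after quantile normalisation. The number higher was 1 without combined array 1 or 3. RIGI, a sensor of viral RNA, read 7.88, 8.03 and 7.94 with TNF and 7.01, 6.92 and 7.02 with both, and fell by 0.96 (SE 0.11, adjusted p = 0.00014). IFIT3, an antiviral effector, fell by 1.03. IFI6, a mitochondrial interferon-induced protein, rose by 0.77. STAT6, the transcription factor of interleukin 4 signalling, fell by 1.59 from 6.21, 5.65 and 5.60 to 4.08, 4.28 and 4.32. PIAS3, an inhibitor of STAT3, fell by 1.19, and SOCS4, a suppressor of cytokine signalling, rose by 0.87.

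Among genes that remodel the cell surroundings, some proteases fell. Of 23 matrix metalloproteinases and inhibitors 4 fell and none rose (median -0.03), and of 24 ADAM and ADAMTS proteases 7 fell and none rose (median -0.18), with 4 without combined array 1 or 2. MMP1, interstitial collagenase, read 9.54, 9.75 and 9.46 with TNF and 7.66, 7.89 and 7.79 with both. It fell by 1.81 (SE 0.14, adjusted p = 8e-06), 3.5-fold, and the combined arrays were below all control arrays at 8.47, 8.54 and 8.71. The inhibitor TIMP3 fell as well, by 0.49. ADAMTS9, a proteoglycan-cleaving protease, fell by 1.16 from a TNF level that was 2.39 above control. ADAMTS15 differed by -1.46, ADAMTS12 by -0.82 and the sheddase ADAM10 by -0.63, all called.

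PLAU, the urokinase that activates plasminogen, read 8.48, 8.51 and 8.25 with TNF and 6.94, 7.13 and 7.0 with both. It fell by 1.39 (SE 0.11, adjusted p = 8e-06), and PLAT, the tissue activator, fell by 0.77. The plasminogen list had 3 of 9 members lower and 1 higher, the protease inhibitor SERPINE2 (0.54), whose call was lost without TNF array 1 or combined array 3. CEMIP, a protein that degrades hyaluronan, read 6.33, 6.13 and 6.07 with TNF and 3.53, 3.58 and 4.06 with both, close to apigenin alone at 3.47, 3.56 and 3.99. It fell by 2.45 (SE 0.18, adjusted p = 4e-06), 5.48-fold, and HMMR, a hyaluronan receptor of the spindle, fell by 0.87. In the hyaluronan and proteoglycan list 4 of 17 fell (median -0.02), or 2 without combined array 1, and 1 was higher, CEMIP2 (0.53), a relative of CEMIP whose call was kept only without TNF array 3.

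Of the structural matrix genes, 11 of 36 collagens, laminins and cross-linking enzymes fell, none rose, and the median was -0.29 with 5 members above 0. COL8A1, a short-chain collagen, differed by -1.36, LOX, which cross-links collagen, by -1.07, thrombospondin THBS1 by -0.91 and laminin LAMB1 by -0.79, all called. ITGA6, the laminin receptor subunit, fell by 0.92.

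In the TGF-β list 6 of 35 fell and 1 rose (median -0.17). TGFB2, a ligand, read 8.46, 8.49 and 8.72 with TNF and 6.54, 6.72 and 6.99 with both, and fell by 1.81 (SE 0.14, adjusted p = 5.6e-06). Both receptor chains fell, TGFBR2 by 1.15 and TGFBR1 by 1.05, and so did the ligand BMP4, by 0.71. The member that rose was ID1, an inhibitor of helix-loop-helix factors, by 0.78. SNAI1, a repressor of E-cadherin, read 3.04, 2.42 and 2.55 with TNF and 4.19, 3.77 and 4.52 with both, and rose by 1.49 (SE 0.29, adjusted p = 0.0053). It was the 1 higher member among 16 mesenchymal transition regulators (median -0.03). Another 1 was lower, a call lost without combined array 2 or 3. CDH1 itself lay at 1.81 to 2.1 on all 12 arrays. That is near the array medians of 2.091 to 2.159, where a fall could hardly be measured.

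Targets of the Hippo pathway did not move as a block, with 4 of 25 lower and 1 higher (median -0.07), beside 5.92% lower and 4.21% higher of all genes. CCN2, connective tissue growth factor, rose by 1.14 from 7.99, 7.75 and 7.62 to 8.95, 9.10 and 8.73 (SE 0.15, adjusted p = 0.00033). ANKRD1, a muscle-type ankyrin repeat protein, fell by 0.97. FAT4, an atypical cadherin, fell by 1.78. CAVIN2, a coat protein of caveolae, read 5.64, 5.10 and 5.77 with TNF and 3.20, 3.19 and 3.39 with both, and fell by 2.24 (SE 0.17, adjusted p = 5.4e-06).

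Growth factor genes were called in small numbers: 2 of 13 in the EGF receptor family (median -0.02) and 1 of 16 in the insulin-like growth factor axis, all lower; the latter share is near that of all genes, though 5 were lower after quantile normalisation. EGFR, the epidermal growth factor receptor, read 8.71, 8.6 and 8.59 with TNF and 7.50, 7.61 and 7.72 with both, and fell by 1.03 (SE 0.12, adjusted p = 0.00019). Its family ligand NRG1 fell by 1.01. Among 20 angiogenic and other growth factors and receptors, 6 fell and 1 rose (median -0.16), the higher one being lost without TNF array 1 or combined array 3. The receptor KDR differed by -1.63 and VEGFA by -0.71. IGFBP1, a binding protein of insulin-like growth factors, fell by 1.51 from 5.70, 5.62 and 5.83 to 4.28, 3.98 and 4.36. In the Notch and Wnt list 5 of 44 fell and 2 were higher (median 0.01), beside 5.92% lower and 4.21% higher of all genes. The number lower was 2 without TNF array 1 or combined array 1, 3 without TNF array 3 and 8 after quantile normalisation. At most 1 was higher without any single array. JAG1, a Notch ligand, fell by 1.32 and FZD2, a Wnt receptor, by 1.28.

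**Figure D3:**
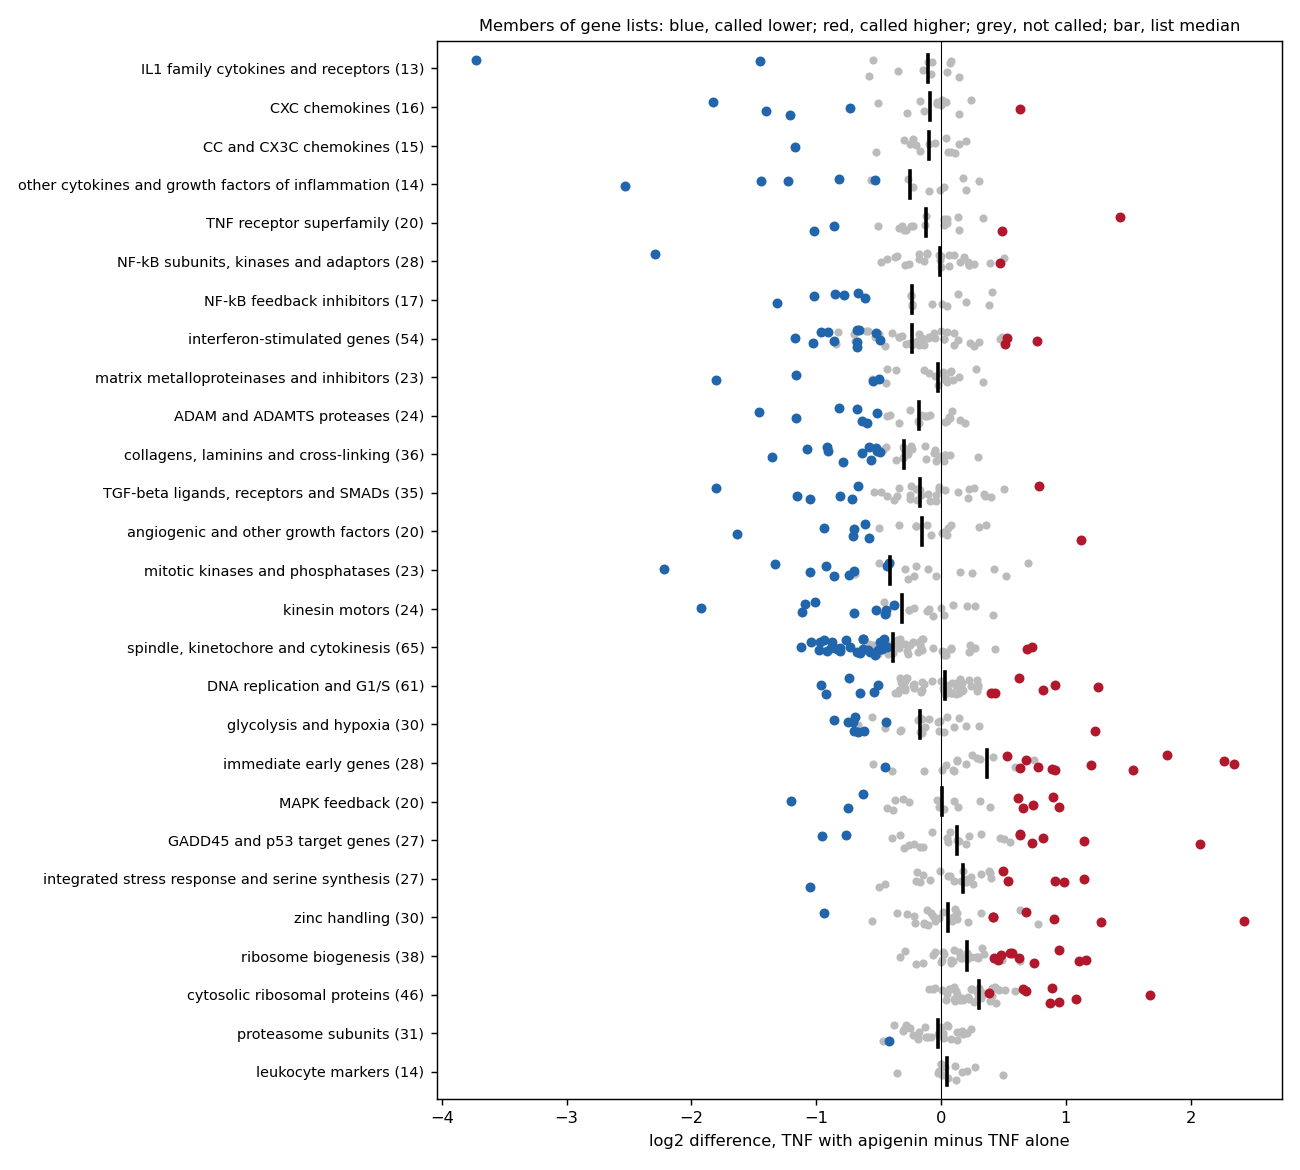
Log2 difference, combined treatment minus TNF, of every measured member of 27 gene lists (number measured in brackets); blue points were called lower, red points called higher, grey points not called, and the black bar is the list's median. Mitotic kinases (-0.41), spindle and kinetochore genes (-0.39) and collagens and laminins (-0.29) have medians below 0, and immediate early genes (0.37) and cytosolic ribosomal proteins (0.30) above 0.

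The 3 lists with the lowest medians of all lists examined were those of mitosis. Of 65 spindle, kinetochore and cytokinesis genes 26 fell and 2 rose (median -0.39), of 23 mitotic kinases and phosphatases 9 fell and none rose (median -0.41), and of 24 kinesin motors 9 fell and none rose (median -0.32). Of the spindle list 57 of 65 were in the brightest 25% of genes, where 12.9% of all genes fell. Quantile normalisation added 3 mitotic kinases called higher. The kinesin count was 5 without TNF array 3, combined array 2 or combined array 3, and the spindle count ran from 18 to 29 as single arrays were left out. Because RNA of whole cultures was measured, fewer cells in division and less RNA per dividing cell cannot be told apart.

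PLK1, the polo-like kinase that drives mitotic entry and spindle assembly, read 7.48, 7.48 and 7.64 with TNF and 5.12, 5.32 and 5.49 with both. The lowest TNF array was far above the highest combined array, and PLK1 fell by 2.22 (SE 0.13, adjusted p = 1.1e-06), 4.67-fold. Without TNF it fell by 2.14, from 7.86, 7.53 and 7.65 to 5.39, 5.64 and 5.60. KIF20A, a kinesin of the central spindle, read 7.23, 6.99 and 7.05 with TNF and 4.93, 5.11 and 5.46 with both, and fell by 1.93 (SE 0.17, adjusted p = 2.3e-05).

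CCNB2, cyclin B2, an activating subunit of the mitotic kinase CDK1, read 5.64, 5.41 and 5.98 with TNF and 4.36, 4.17 and 4.5 with both. It fell by 1.33 (SE 0.20, adjusted p = 0.0011), and CCNB1 fell by 0.96. Other mitotic regulators that fell were the centrosome kinase NEK2 (-1.33), CDC20, the activator of the anaphase-promoting complex (-1.12), the phosphatases CDC25C (-1.05) and CDC25B (-0.92), and AURKA (-0.86). Motors and structural parts that fell included KIF14 (-1.12), CENPE (-1.09), the microtubule depolymerase KIF2C (-1.01), the kinetochore protein NDC80 (-1.04), topoisomerase TOP2A (-0.98) and the spindle pole protein ASPM (-0.97). The kinetochore genes CENPN and MIS12 rose, by 0.73 and 0.69.

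The promoters of PLK1 and CCNB2 are shown because each holds TTTGAA, the core of the cell cycle genes homology region (CHR) through which late cell cycle genes are repressed outside of division, at the same distance of 29 bases before the start site. As above they are the 250 bases before the start site in RefSeq on GRCh38.p14, with the element in capitals. PLK1 lies at chr16:23678639-23678888 on the plus strand and CCNB2 at chr15:59104896-59105145 on the plus strand.
PLK1: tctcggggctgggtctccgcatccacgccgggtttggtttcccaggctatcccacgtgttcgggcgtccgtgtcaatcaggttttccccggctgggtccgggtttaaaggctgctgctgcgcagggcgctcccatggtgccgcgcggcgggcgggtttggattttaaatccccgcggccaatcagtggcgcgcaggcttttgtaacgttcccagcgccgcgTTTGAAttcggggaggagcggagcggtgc
CCNB2: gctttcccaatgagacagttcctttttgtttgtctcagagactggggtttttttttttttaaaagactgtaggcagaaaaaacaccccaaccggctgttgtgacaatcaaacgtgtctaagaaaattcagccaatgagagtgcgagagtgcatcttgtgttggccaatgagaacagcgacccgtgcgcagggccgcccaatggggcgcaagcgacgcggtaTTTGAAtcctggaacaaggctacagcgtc

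TTTGAA on either strand was present in 11.8% of the 14711 promoter windows and in 49.5% of 103 windows of mitosis and cyclin genes. It was present in 61.4% of the 44 whose gene fell and in 40.7% of the 59 whose gene did not, but in 13.8% of the 994 windows of all genes that fell, close to the share of all windows. CCAAT, which often accompanies it, was present in 35.8% of all windows, in 72.7% of the 44 and in 57.6% of the 59. KIF20A, CCNB1, CENPE and NEK2 had no TTTGAA in the window.

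DNA replication genes were split, with 6 of 61 higher and 6 lower and a median of 0.03. Of the 61, 51 were among the brightest genes, those with a mean of at least 4.86. Of all genes that bright 10.1% rose and 12.9% fell, so these counts do not set the list apart. The 6 lower were 3 without TNF array 1 or combined array 1, and the 6 higher were 3 without TNF array 2, combined array 1 or combined array 2. ORC6, a subunit of the origin recognition complex, rose by 1.26 (SE 0.12, adjusted p = 3.3e-05) from 5.49, 5.49 and 5.80 to 6.95, 6.81 and 6.79. The flap endonuclease FEN1 rose by 0.91 and GINS3 by 0.82. Lower were GINS1 (-0.96), another part of the same helicase complex as GINS3, the polymerase subunit POLE2 (-0.92) and the helicase subunit MCM3 (-0.64). CCNT1 and CCNT2, cyclins that act in transcription elongation, rose by 1.34 and 1.0, and their kinase partner CDK9 rose by 0.77. The histone H2BC5, an H2B variant gene that can be polyadenylated, read 4.73, 5.21 and 5.27 with TNF and 6.96, 6.66 and 7.04 with both, and rose by 1.81 (SE 0.16, adjusted p = 2.7e-05).

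**Figure D4:**
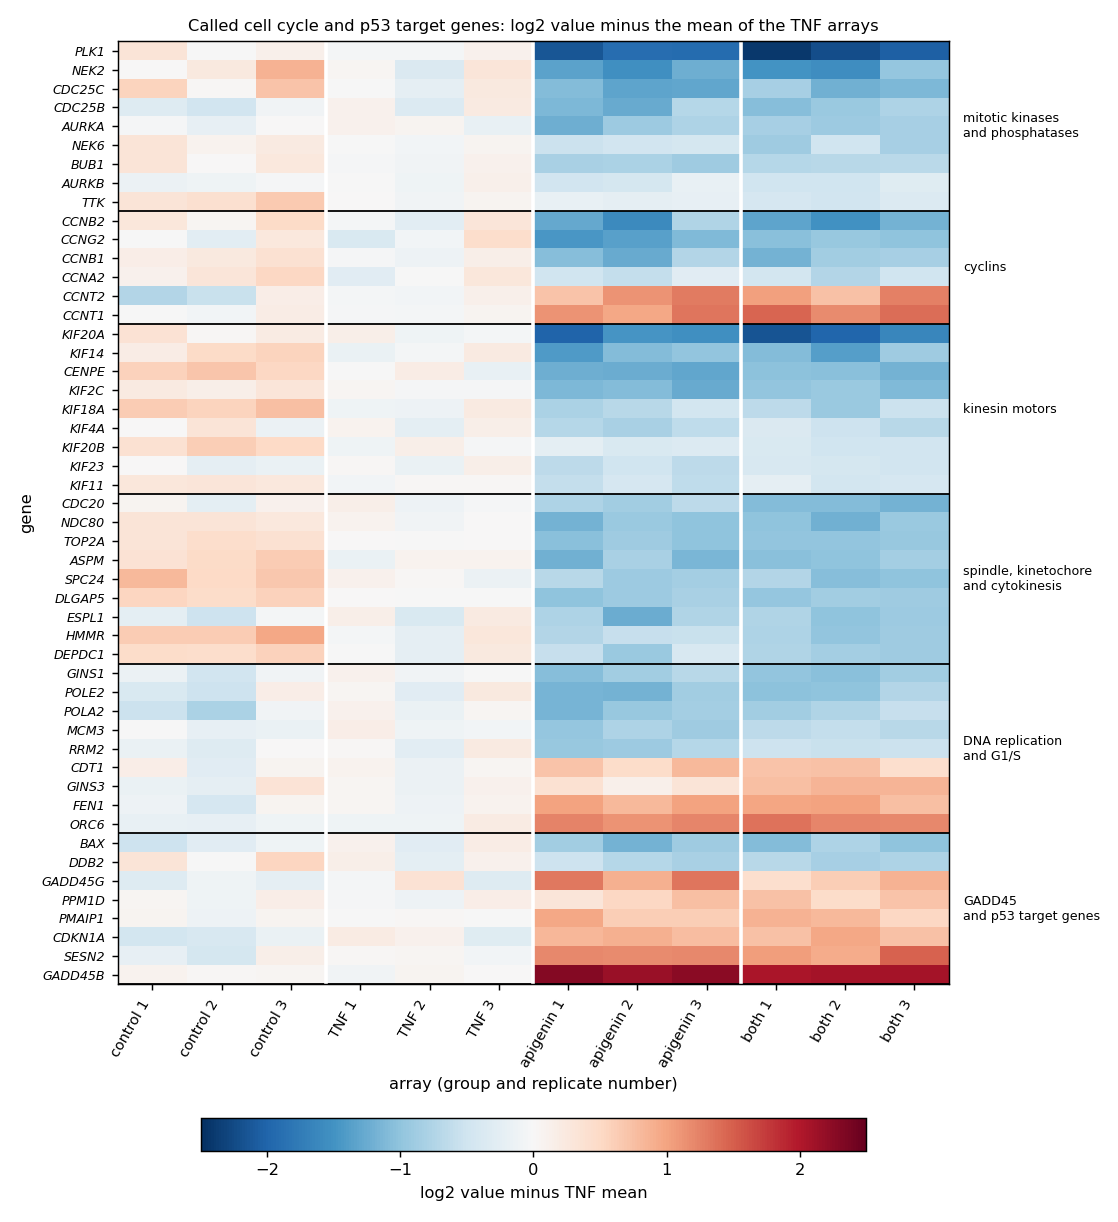
Heat map of 50 called cell cycle and growth arrest genes (rows) on the 12 arrays (columns), coloured by the log2 value minus the gene's mean on the 3 TNF arrays, with the scale ending at 2.5 in each direction. The 3 combined arrays share blue rows for mitotic genes such as PLK1 (-2.22) and red rows such as GADD45B (2.08), and the 3 apigenin arrays are on the same side of 0 for both.

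Of 27 GADD45 and p53 target genes 6 rose, 2 fell and 19 were not called (median 0.13). GADD45B, which activates the p38 kinase pathway, read 7.0, 7.14 and 7.09 with TNF and 9.13, 9.16 and 9.17 with both. It rose by 2.08 (SE 0.10, adjusted p = 1.4e-07), 4.21-fold, and the arrays of each group lay close together. CDKN1A, the inhibitor p21, rose by 0.81, SESN2, a stress-induced regulator of the kinase complex mTORC1, by 1.15, and PMAIP1, the BH3-only protein NOXA, by 0.73. BAX, an executor of mitochondrial apoptosis, and DDB2, a DNA damage sensor, which are also p53 targets, fell by 0.95 and 0.76.

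Immediate early genes, whose transcription follows growth signals and stress within minutes, had 11 of 28 members higher and 1 lower, a median of 0.37 and 24 members above 0. EGR1, a zinc finger factor, read 4.89, 4.48 and 5.04 with TNF and 6.52, 6.52 and 6.82 with both, and rose by 1.82 (SE 0.22, adjusted p = 0.00023). ARC, known from synaptic plasticity, read 2.46, 2.90 and 3.13 with TNF and 5.23, 5.01 and 5.08 with both, and rose by 2.27 (SE 0.26, adjusted p = 0.00016). ZFP36, which destabilises cytokine mRNAs including that of TNF, rose by 1.54 and the AP-1 subunit JUNB by 1.2. ATF3, a stress-induced repressor, rose by 0.91. FOS differed by 0.75 without a call (adjusted p = 0.097). IER3, which NF-κB induces, differed by -0.45, the 1 lower member, and that call was lost without combined array 1 (-0.40); without TNF array 2 the list had 2 lower members.

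Feedback genes of the MAP kinase pathway followed no single direction, with 5 of 20 higher and 3 lower (median 0.01). The phosphatases DUSP5 and DUSP1 rose by 0.94 and 0.90, and the Sprouty inhibitors SPRY4 and SPRY2 by 0.74 and 0.61. DUSP10 fell by 0.63 and ETV4, an ETS factor downstream of ERK, by 1.2. RASD1, a small GTPase of the RAS family known as induced by dexamethasone, read 3.70, 2.88 and 3.63 with TNF and 5.62, 5.86 and 5.79 with both, and rose by 2.35 (SE 0.22, adjusted p = 3.9e-05).

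Genes of the integrated stress response, the programme that follows phosphorylation of eIF2 alpha, rose in 5 of 27 cases and fell in 1 (median 0.18). ASNS, asparagine synthetase, rose by 0.99 and PSAT1, of serine synthesis, by 0.54. The amino acid transporter chain SLC3A2 rose by 0.99 and its partner SLC7A11, which imports cystine, by 0.70. EIF2AK4, the kinase GCN2 that senses amino acid shortage, fell by 1.05. KICS2, a part of the KICSTOR complex that tethers the mTORC1 inhibitor GATOR1 to lysosomes, read 2.72, 2.78 and 3.29 with TNF and 5.43, 4.72 and 5.58 with both, and rose by 2.32 (SE 0.25, adjusted p = 0.00011). The chaperones HSPA5 of the endoplasmic reticulum and DNAJB1 of the cytosol rose by 0.56 and 0.87.

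Ribosome genes leaned upwards. Of 46 measured cytosolic ribosomal protein genes, out of 76 written in the list, 8 rose and none fell, 43 differences were above 0, and the median was 0.30. The count was 5 without TNF array 1, TNF array 2, combined array 2 or combined array 3. RPLP1, an acidic stalk protein, read 3.11, 3.37 and 3.08 with TNF and 4.68, 4.68 and 5.23 with both, and rose by 1.68 (SE 0.17, adjusted p = 7.9e-05). These genes have many near-identical processed copies in the genome, so that part of their signal can come from copies. Of 38 ribosome biogenesis genes 10 rose and none fell (median 0.21), with 5 without combined array 1. Of these 38 genes 33 had a mean of at least 4.86, as had 30 of the 46 ribosomal protein genes. Of all genes that bright 10.1% rose and 12.9% fell. The counts of higher genes alone therefore say less than the medians and the absence of lower calls. The processome protein UTP3 differed by 1.16, BYSL by 1.11, NIP7 by 0.95 and UTP15 by 0.74, all called.

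Metabolic genes changed in part. Of 30 glycolysis and hypoxia genes 8 fell and 1 rose (median -0.17). PFKFB4, which sets the level of an activator of glycolysis, differed by -0.85, the mitophagy receptor BNIP3L by -0.74 and the pyruvate dehydrogenase kinase PDK1 by -0.70. ADM, the peptide adrenomedullin, was the 1 higher member and rose by 1.23 (SE 0.10, adjusted p = 1.5e-05) from 5.00, 5.11 and 5.20 to 6.30, 6.41 and 6.30. Among 17 arrestin-domain genes and glucose transporters 3 rose and 2 fell (median -0.03), with 1 lower without any single array. ARRDC4 rose by 2.25 (SE 0.30, adjusted p = 0.00042), ARRDC3 by 1.0 and TXNIP by 0.80, the glucose transporter SLC2A6 fell by 0.78, and ARRDC1 differed by -0.56 without a call (adjusted p = 0.104). ARRDC4 read 3.44, 2.81 and 3.53 with TNF and 5.47, 5.12 and 5.94 with both. WIPI1, a protein of the forming autophagosome, fell by 1.81 (SE 0.16, adjusted p = 1.8e-05), and PDE7B, a cyclic AMP phosphodiesterase, by 1.63.

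Zinc handling contained the coding gene with the largest rise. SLC30A1, which exports zinc across the plasma membrane, read 6.48, 6.50 and 6.78 with TNF and 9.05, 8.96 and 9.04 with both. It rose by 2.43 (SE 0.13, adjusted p = 3.8e-07), 5.38-fold, and was equally separated without TNF, at 6.59, 6.69 and 6.83 in control cells and 9.16, 8.83 and 9.17 with apigenin. MTF1, the zinc-sensing transcription factor, rose by 1.28 (SE 0.17, adjusted p = 0.00042) from 6.47, 6.28 and 6.62 to 7.65, 7.65 and 7.92. The exporter SLC30A6 rose by 0.68 and the importer SLC39A10 fell by 0.93. In all 6 of 30 rose and 1 fell (median 0.05), with 3 higher without TNF array 1, combined array 1 or combined array 3.

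Aryl hydrocarbon receptor genes had 1 of 9 lower, or 3 after quantile normalisation. CYP1B1, an oxidising enzyme of xenobiotics and oestrogens, read 6.93, 6.90 and 6.89 with TNF and 4.0, 4.62 and 4.60 with both, and fell by 2.5 (SE 0.16, adjusted p = 1.5e-06), 5.67-fold. Without TNF it fell by 2.39. The receptor AHR differed by -0.35 without a call (adjusted p = 0.098). Of 12 measured casein kinase 2 subunits and other kinases linked by name to apigenin, CDK9 rose by 0.77 and PIM1 fell by 0.92; 2 were lower without TNF array 1 or 2, and 2 higher without TNF array 3. Of 26 measured NRF2 antioxidant targets 3 were higher and 1 lower (median -0.03). With any single array left out, 1 to 2 were higher. The lower one was ME1, malic enzyme, which fell by 1.21. The housekeeping genes ACTB (3.22 to 3.8 on the 12 arrays) and GAPDH (4.84 to 5.07) were too dim for such abundant transcripts to serve as a check.

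Of 659 measured microRNA loci, 11 rose (1.67%) and 7 fell (1.06%), smaller shares than among all genes, and 9 of these 18 kept their call whichever array was left out. The probe sets are named for the locus and may read the precursor transcript rather than the mature RNA. MIR100 had the largest rise of all 20572 genes: it read 2.97, 2.24 and 2.24 with TNF and 5.84, 5.47 and 5.92 with both, and rose by 3.26 (SE 0.20, adjusted p = 1.3e-06), 9.57-fold. Without TNF it rose by 3.57. MIR3143 rose by 2.51 from 6.52, 6.87 and 6.76 to 8.87, 9.34 and 9.48. MIR21, whose product is abundant in many tumours, read 4.13, 3.81 and 4.69 with TNF and 5.70, 6.38 and 6.66 with both, and rose by 2.04 (SE 0.33, adjusted p = 0.0016). MIRLET7I rose by 0.69 from 2.26, 2.28 and 2.48 to 2.93, 3.15 and 3.00. Of the loci that fell, MIR891A differed by -0.98 and MIR4737 by -0.96, while MIR146A differed by -0.72 and kept its call only without TNF array 1.

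The mature sequences of the 3 named loci that rose and have an entry in RefSeq (GRCh38.p14) are shown, since the seed, bases 2 to 8 in capitals, decides which messages a microRNA can pair with. The arm miR-100-5p lies at chr11:122152275-122152296 on the minus strand, miR-21-5p at chr17:59841273-59841294 on the plus strand and let-7i-5p at chr12:62603691-62603712 on the plus strand.
hsa-miR-100-5p: aACCCGUAgauccgaacuugug
hsa-miR-21-5p: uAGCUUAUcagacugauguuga
hsa-let-7i-5p: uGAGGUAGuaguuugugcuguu

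The 3 seeds differ from each other, so these microRNAs form no common seed group. Among longer non-coding RNAs, HIF1A-AS2, transcribed antisense to the gene of the hypoxia factor HIF1A, rose by 2.36 (SE 0.19, adjusted p = 8e-06) from 4.73, 5.23 and 5.45 to 7.64, 7.30 and 7.57. LINC02984 fell by 1.94 (SE 0.28, adjusted p = 0.00069). IL6-AS1, antisense to IL6, fell by 1.21 (SE 0.23, adjusted p = 0.004) from 2.69, 2.98 and 3.28 to 1.53, 1.96 and 1.83, and was 1.29 above control with TNF alone.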

How the data were processed

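Total RNA of 12 samples was hybridised to Affymetrix whole-transcript arrays. The deposited values are log2 values per probe set, made by the authors in Expression Console, according to the submitters' processing notes. Neither its version nor its summary algorithm is given in the sources used here. The array medians lie close together, as normalisation between arrays leaves them, so a shift of all genes at once would not be seen. No detection call was used. The unit of analysis was the probe set with 1 gene symbol in GEO's platform annotation, and symbols were updated through RefSeq gene identifiers for 22569 of 23871 probe sets. Probe sets that reached the 25th percentile of their own array on at least 3 arrays were kept, and the brightest one stood for its gene.

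Group means were fitted to all 12 arrays with limma 3.58.1 in R 4.3.3, with empirical Bayes moderation and Benjamini-Hochberg adjustment over all 20572 genes. An exact permutation test of 3 against 3 arrays cannot give a two-sided p below 0.1. Tables and figures were made with Python 3.11.15, pandas 2.3.3 and matplotlib 3.10.9. The fit was tested on simulated data.

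The members and gene lists were chosen with earlier results of these data known. Genes named are the 14 highest and 14 lowest called coding genes whose groups did not overlap, at most 5 called genes per list and direction, uncalled genes of interest, a fixed panel, all interaction genes, and 3 non-coding RNAs in each direction, together with microRNA loci chosen after their values were seen. The alternatives were a fit of only the arrays compared, no filter and a stricter filter, quantile normalisation, the replicate number as a block, the mean over probe sets, a variance trend, each array left out in turn, and all arrays numbered 3 left out. The labels state no pairing, so the replicate number was not used as one in the main fit. The values do carry a trace of it. Same-numbered TNF and combined arrays deviated from their group means with correlations of 0.063, 0.337 and 0.394. TNF array 2 with combined array 3 gave -0.344, and TNF array 3 with combined array 2 gave -0.345.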

Additional observations from a re-analysis of the deposited data

Results flagged for a closer look

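The 11 genes whose apigenin difference was not the same with and without TNF, by the limma interaction at an adjusted p below 0.05, were picked out for a closer look. The interaction, the difference with TNF minus the difference without it, was -3.57 for IL1A, -2.51 for LOC100287834, -2.29 for C3, -2.09 for CXCL8, -1.51 for CXCL11, -1.47 for IL24, -1.46 for CNTNAP1, -1.39 for MMP9 and -1.12 for CLDN1. It was positive for SAMD9L (1.37) and VIPR1 (1.18). LOC100287834 read 10.86, 10.42 and 11.44 on the TNF arrays and 9.59, 9.28 and 8.88 on the combined arrays, with 9.64, 9.38 and 8.92 in control cells and 10.38, 10.37 and 9.75 with apigenin alone. Over the 19 alternatives the adjusted p ran from 9.62e-07 to 0.000923 for IL1A and from 2.38e-05 to 0.0302 for C3, and for the other 9 genes its highest value was between 0.144 and 0.551.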

How the results depend on the processing

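The alternatives were followed for 281 called genes taken by the rules for naming genes. These include genes not named above and leave out some that are named, such as MIR21, ZNF92 and SNORD99. None of the 281 turned from one direction to the other, but the balance of calls did. The combined treatment against TNF had 780 higher and 749 lower without TNF array 3, against 867 and 1218. The combined treatment against control had 1300 higher and 2049 lower after quantile normalisation, against 1471 and 1105. The comparison of the combined treatment with TNF called 1191 to 2063 genes as single arrays were left out and 1288 without all arrays numbered 3, against 2085. Apigenin against control ran from 1534 to 2050 and was 1505 without the arrays numbered 3. The interaction ran from 2 to 6 genes, with 4 under a variance trend and 2 without the arrays numbered 3, against 11. TNF against control ran from 98 to 314, with 73 in a fit of the 6 arrays compared and 85 without the arrays numbered 3, against 205. With the replicate number as a block the calls were 3315 for the combined treatment against TNF and 632 for TNF against control, and each of the 6 TNF and combined arrays correlated best with its own number, a hint from the data and not from the design. Fewer arrays give fewer residual degrees of freedom. Of the 281 called genes followed, quantile normalisation lost 4, a fit of the 6 arrays 27, and leaving out an array 44 to 83. With 3 arrays a group, their number limits the precision, and dim genes were rarely called.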

Other observations

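Zinc finger genes with symbols beginning with ZNF, a group chosen after its values were seen, had 72 of 422 members higher with both agents than with TNF (17.1%) and 9 lower (2.13%), with a median difference of 0.19. Of all genes 4.21% were higher and 5.92% lower. The number higher was 44 without TNF array 1 or 2, 43 without combined array 1 and 45 without combined array 3, and the number lower ran from 2 without TNF array 3 or combined array 1 to 12 without TNF array 2. ZNF557 differed by 1.63, ZNF468 by 1.56 and ZNF92 by 1.5, while ZNF114 differed by -1.39.

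Small nucleolar RNAs, guides for chemical changes to ribosomal RNA, rose in 7 of 151 cases (4.64%, near the 4.21% of all genes) and fell in none, with a median difference of 0.50; 5 of the 7 kept their call whichever array was left out. SNORD99 read 2.69, 2.48 and 2.39 on the TNF arrays and 4.21, 4.14 and 4.29 on the combined arrays, a rise of 1.69. VTRNA2-1, a vault-related RNA, read 5.6, 6.21 and 5.56 with TNF and 7.5, 6.79 and 7.56 with both, and rose by 1.49.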
